A study of Mus musculus with 14 samples.

Results

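Promoter regions that carried H3K27me3 at postnatal day 7 (P7) and lacked a called peak at day 14 (P14) and day 60 (P60) were examined in mouse cerebellum. Merging the overlapping or touching peaks of the 9 libraries of the age series gave 39220 regions in all. Of these, 8609 lay within 3 kb of an annotated transcription start site (TSS) of a protein-coding gene. A promoter region was counted as P7-only when a peak of all 3 P7 libraries and no peak of any P14 or P60 library overlapped it by 1 bp or more. The rule kept 378 regions, 4.39% of the promoter regions, nearest to the TSSs of 371 genes. Because peak presence at the 3 ages chose these regions, the difference between P7 and the later ages is a description of them and was not tested.

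The libraries were made from cerebellum of C57BL/6NCrl mice of both sexes by chromatin immunoprecipitation and sequencing (ChIP-seq), with 3 libraries at each of P7, P14 and P60. Per the study's methods, each P7 library pooled 3 mice, each P14 library pooled 2, and each P60 library came from 1 mouse, so that pool size and age cannot be told apart. The mice of the age series carried no stated allele or treatment. The series also holds a comparison at P14 of Kdm6b fl/fl mice (2 libraries, Kdm6b-WT) with Atoh1-Cre; Kdm6b fl/fl mice (3 libraries, Kdm6b-cKO), in which Cre is driven in granule neuron progenitors. Those 5 lists were not used here, because their positions are not on the mm10 build of the age series.

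H3K27me3 is trimethylation of lysine 27 of histone H3. Polycomb repressive complex 2 writes it, mainly over CpG-rich promoters of genes that are silent in that cell, and the demethylases Kdm6a and Kdm6b can remove it. In the first weeks after birth, progenitors of the external granule layer leave the cell cycle, migrate inward and mature into granule neurons, which form nearly all of the neurons of the cerebellum and acquire their ion channels and synapses late in this course.

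The sequence under the mark is shown for 3 of the 4 regions with the largest coverage in the P7 library that covered them least, and for the next ion channel genes by that measure. Each stretch is the 150 bases with the most CpG dinucleotides inside the part of the region that lay under a peak in all 3 P7 libraries, outside annotated untranslated regions. All are from the plus strand of mm10, written 5′ to 3′, with every CG in capitals. Cacna1i, the pore-forming subunit of a T-type calcium channel, is shown upstream of its TSS, at chr15:80287079-80287228 with 13 CpG. For Irf2bpl, a nuclear protein linked to a neurodevelopmental disorder, the stretch is coding sequence at chr12:86883383-86883532 with 22 CpG. Car11 encodes a carbonic anhydrase-related protein, and its stretch lies upstream of the TSS at chr7:45699506-45699655 with 8 CpG. The stretch of Hcn2, a channel opened by hyperpolarization and cyclic nucleotides, is intronic at chr10:79717649-79717798 with 20 CpG. For Cacna1a, the pore-forming subunit of the P/Q-type calcium channel, it is an intron of an annotated transcript at chr8:84600572-84600721 with 10 CpG. Kcnk3, an acid-sensitive background potassium channel, is shown in its coding sequence at chr5:30588380-30588529 with 22 CpG.
Cacna1i: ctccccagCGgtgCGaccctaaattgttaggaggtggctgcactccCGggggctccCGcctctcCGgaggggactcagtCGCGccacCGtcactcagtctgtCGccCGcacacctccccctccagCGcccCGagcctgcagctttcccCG
Irf2bpl: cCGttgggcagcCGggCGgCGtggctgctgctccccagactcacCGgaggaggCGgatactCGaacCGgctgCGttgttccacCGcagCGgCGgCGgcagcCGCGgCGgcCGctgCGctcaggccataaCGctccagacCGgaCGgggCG
Car11: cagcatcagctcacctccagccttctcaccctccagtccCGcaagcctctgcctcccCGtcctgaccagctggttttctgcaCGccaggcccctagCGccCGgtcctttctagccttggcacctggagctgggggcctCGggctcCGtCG
Hcn2: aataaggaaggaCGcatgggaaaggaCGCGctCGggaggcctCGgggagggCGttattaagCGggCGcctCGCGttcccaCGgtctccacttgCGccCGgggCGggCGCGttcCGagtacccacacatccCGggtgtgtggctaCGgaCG
Cacna1a: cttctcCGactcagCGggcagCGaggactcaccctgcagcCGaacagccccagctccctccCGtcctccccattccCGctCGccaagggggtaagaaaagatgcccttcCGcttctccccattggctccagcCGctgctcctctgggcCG
Kcnk3: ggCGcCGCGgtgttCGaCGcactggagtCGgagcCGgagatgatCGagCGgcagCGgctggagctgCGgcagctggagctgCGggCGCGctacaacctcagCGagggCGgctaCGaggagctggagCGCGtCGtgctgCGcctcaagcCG

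The lists that defined the regions differed in size. P7 replicates 1, 2 and 3 held 15388, 11852 and 8840 peaks over 15.2, 8.40 and 7.38 Mb. The P14 lists held between 9475 and 12572 peaks over 3.62 to 9.26 Mb, and P14 replicate 3 covered more sequence than P7 replicates 2 and 3. The P60 lists held between 6905 and 15600 peaks over 1.48 to 3.61 Mb. Read numbers per library are unknown, and in whole tissue a mark on fewer cells and less of the mark per cell cannot be told apart. The opposite patterns were scarcer: 33 promoter regions (0.383%) had a peak in all 3 P14 libraries and in no other, and 18 (0.209%) in all 3 P60 libraries and in no other.

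Coverage here is the number of bases of a region that lay under peaks of a library, and it was 0 bp in every P14 and P60 library for all 378 regions by the rule. At P7 the median coverage was 1358, 762.5 and 660.5 bp in replicates 1, 2 and 3. Replicate 1 covered the most sequence in 320 of the 378 regions, and replicate 3 the least in 201. The median fold enrichment over the library's own background was 3.13, 3.34 and 3.24 in the 3 replicates. The smallest of the 3 P7 coverages, used below to order the regions, ran from 128 to 2288 bp with a median of 517.5 bp. A stretch shared by peaks of all 3 P7 libraries was present in all but 29 regions, which the merging of staggered peaks had joined.

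Scrt1, which encodes a zinc finger repressor of transcription in neurons, led this order, with 3033, 2330 and 2288 bp covered in P7 replicates 1, 2 and 3. Its region lay 2194 bp inside the gene from the nearest TSS. Cacna1i followed with 2876, 2265 and 2641 bp over a region that held the TSS (chr15:80285964-80288892). The closest P14 and P60 peaks were 45288 and 27741 bp away from it. Both regions were covered over 2 kb or more in all 3 P7 libraries, and the rule itself requires that no later peak overlaps them. Irf2bpl had 2542, 2232 and 2395 bp in the 3 replicates, beginning 735 bp downstream of the TSS. Car11 had 2350, 2146 and 2326 bp across its TSS. Cdk5r2, an activator subunit of the neuronal kinase Cdk5, had 2223, 2084 and 2096 bp starting 331 bp downstream, with a P14 peak 3261 bp away. In these 3 regions the replicates lay close together.

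The next genes of the order mixed neuronal and other functions. Mmp9, a secreted matrix metalloproteinase, had 2643, 2030 and 2477 bp covered in P7 replicates 1, 2 and 3. C1qtnf4, a secreted C1q-related protein, had the widest region of all (4596 bp), with 3859, 1993 and 2958 bp covered. Insyn1, a component of inhibitory postsynaptic sites, had 3026, 1926 and 2065 bp. For the latter pair of genes replicate 1 stood well above the other two libraries. The smallest coverage of the remaining 12 of the first 20 regions ran from 1861 bp at Ppp3cc, a calcineurin catalytic subunit, down to 1426 bp at Adora1, an adenosine receptor. Between them stood Fabp3 (a fatty acid-binding protein), Spon1 (F-spondin, an extracellular matrix protein), Shisa8 (an auxiliary protein of AMPA receptors), Zbtb8b, Pard6b (a cell polarity protein), Gpbp1, Rora (a nuclear receptor needed by Purkinje cells), Vav1 (a signalling protein of blood cells), Lingo1 (a Nogo receptor partner) and Hcn2.

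**Figure D1:**
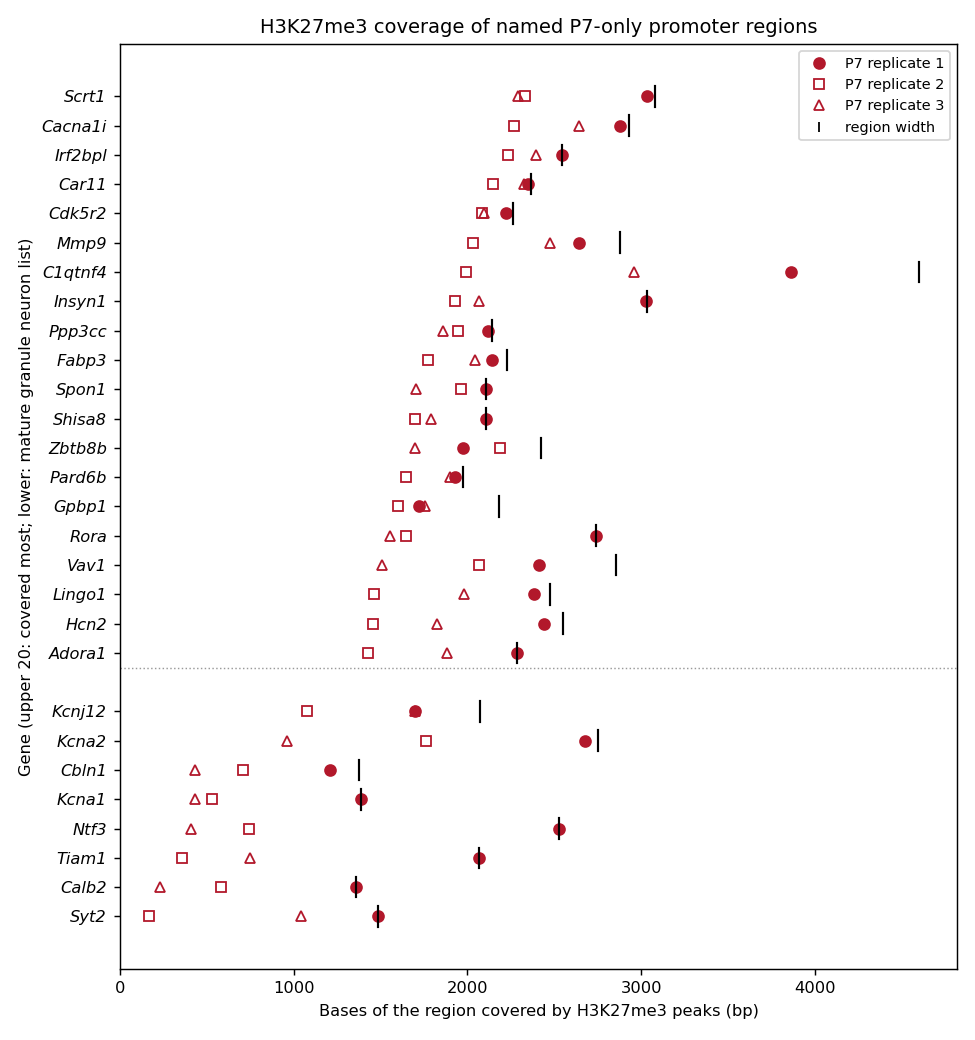
Bases covered by H3K27me3 peaks (bp, x axis) in each P7 library for named P7-only promoter regions (y axis): above the dotted line the 20 regions with the largest smallest-of-3 coverage, below it the other mature granule neuron genes. Markers are P7 replicates and black ticks the width of the region; replicate 1 usually reaches closest to the full width, and the lower group spans a wider range between replicates, as at Syt2 with 1485, 166 and 1045 bp.

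At the other end of the rule, the smallest P7 coverages that still counted were 131 bp at Tbc1d2, 129 bp at Susd4 and 128 bp at Schip1, each in P7 replicate 2. The regions that came nearest to counting had a peak in all 3 P7 libraries, in 1 P14 library and in no P60 library, and there were 210 of them. Of these, 154 had their peak in P14 replicate 3, 52 in replicate 2 and 4 in replicate 1. Slc12a5, which encodes a chloride exporter of neurons, missed the rule at its most covered region by 184 bp in P14 replicate 3, although at least 2829 bp were covered in every P7 library. Kcnk12, of the tandem pore family of potassium channels, missed it by 270 bp, and Fstl4, a follistatin-like protein, by 923 bp, both in the same P14 library. A single P14 library, the one covering the most sequence at that age, thus decided most of these cases.

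Mature granule neuron genes were examined as a list of 44, of which 16 had a promoter region with a peak in all 3 P7 libraries. Among those 16, 9 genes (56.3%) had a P7-only region, beside 371 of 2903 protein-coding genes with such a P7 region (12.8%). The 9 genes were Calb2, Cbln1, Hcn2, Kcna1, Kcna2, Kcnj12, Ntf3, Syt2 and Tiam1. The list was drawn up with results of these libraries known, so the count describes it and no test was made. The count moved with the choice of peaks: it was 4 of 10 when peaks with a −log10 q under 2 were dropped (12.6% of all genes), and 14 of 22 without P7 replicate 3 (18.9%). At Kcna1, Syt2 and Tiam1 another promoter region of the same gene had a P14 or P60 peak, which was also so for 82 of the 371 genes (22.1%).

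Hcn2 was the most covered of the 9, with 2438, 1454 and 1824 bp in P7 replicates 1, 2 and 3 over a region that held its TSS. Kcnj12, an inward rectifier potassium channel, had 1701, 1080 and 1697 bp. Kcna2, a voltage-gated potassium channel of axons, had 2675, 1761 and 961 bp. These 3 channel genes had at least 961 bp covered in each P7 library. Cbln1, which granule neurons secrete to organize their synapses onto Purkinje cells, had 1212, 707 and 434 bp. Ntf3, a neurotrophin, had 2526, 744 and 408 bp. Tiam1, an activator of the GTPase Rac, had 2067, 361 and 752 bp at the TSS of its P7-only region, while a further region of the gene (chr16:89817412-89819138) had 290 and 783 bp covered in P14 replicates 2 and 3. At the last 3 of these genes replicate 1 covered more sequence than the other P7 libraries. Syt2, a calcium sensor of fast transmitter release, likewise had a second promoter region (chr1:134645211-134648085) with 478, 546 and 1122 bp covered in P14 replicates 1, 2 and 3, so that only its region at chr1:134708285-134709769 belonged to the P7-only group.

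The other 7 genes of the list with a P7 region kept a peak in some later library. Grm4, the presynaptic glutamate receptor of parallel fibres, had 2680, 1622 and 2545 bp covered at P7 and 626 bp in P14 replicate 2 alone. Rbfox3, the neuronal splicing factor known as NeuN, had 2525, 2399 and 2209 bp at P7 and 103 bp in P14 replicate 1 alone. Gabrd, the delta subunit of extrasynaptic GABA receptors, had 1199, 914 and 599 bp at P7 and 488 bp in P14 replicate 3 alone. In each of these, a peak in 1 P14 library separated the gene from the P7-only group, as it did for Wnt7a. Grin2c, the NMDA receptor subunit of mature granule neurons, had 2057, 1783 and 1700 bp at P7, with 1202 and 1270 bp in P14 replicates 2 and 3 and none at P60. Kcnk9, a background potassium channel, kept peaks in all 3 P14 libraries and in 2 of the 3 P60 libraries. Outside the list, Nptx1, a secreted neuronal pentraxin, had 3471, 3454 and 3274 bp at P7 and 468 and 988 bp in P14 replicates 2 and 3, and Ccdc106 had 367, 177 and 655 bp in the 3 P14 libraries.

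**Figure D2:**
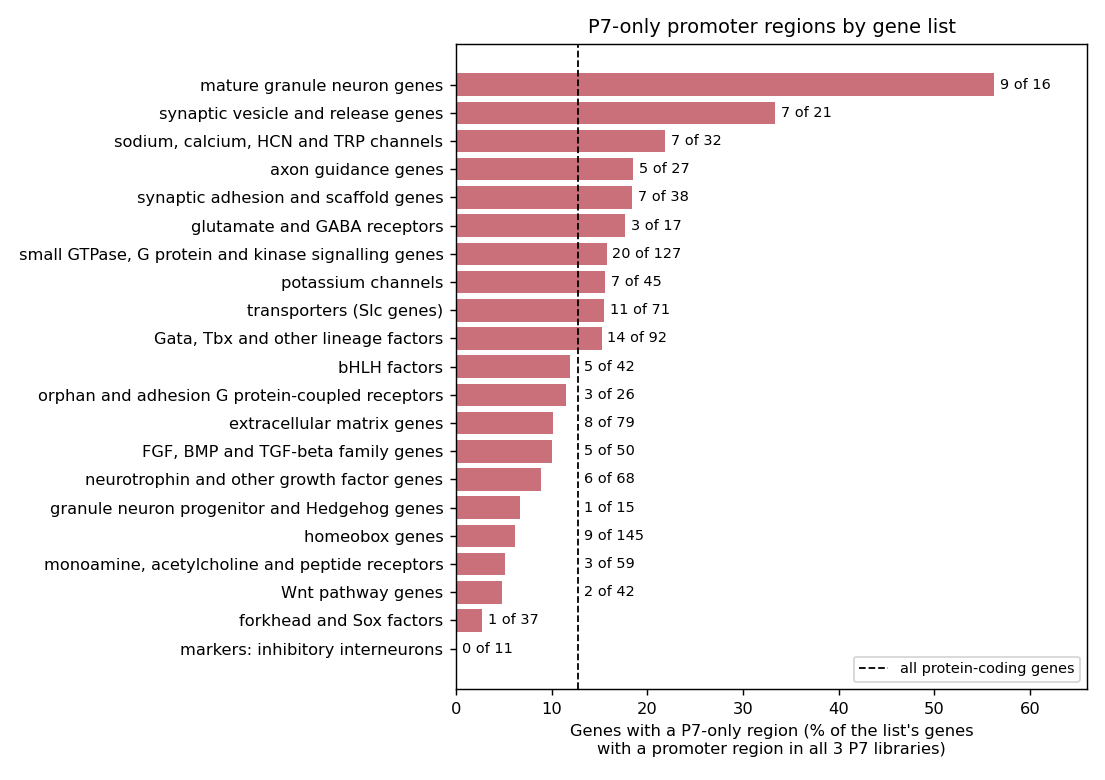
Share of genes with a P7-only promoter region (x axis, %) among the genes of each list (y axis) that had a promoter region with a peak in all 3 P7 libraries; numbers beside the bars are the counts, and lists with under 10 such genes are left out. The dashed line marks 12.8% for all protein-coding genes; the mature granule neuron list stands at 9 of 16 and homeobox genes at 9 of 145.

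Voltage-gated calcium channels were looked at as a family after the values had been seen. Of the 10 genes for the pore-forming Cacna1 subunits, 7 had a promoter region in all 3 P7 libraries, and in 5 of them (Cacna1a, Cacna1c, Cacna1e, Cacna1g and Cacna1i) such a region was P7-only, beside 12.8% of all genes with a P7 region. Only the region of Cacna1i was at the annotated 5′ end of its gene. The other 4 lay at alternative TSSs, with the 5′ end 211920 bp away for Cacna1a, 88419 bp for Cacna1c, 158165 bp for Cacna1e and 58370 bp for Cacna1g. Cacna1a had 1796, 1515 and 1378 bp covered in P7 replicates 1, 2 and 3, and its nearest P14 peak lay 290214 bp away. Cacna1e, the R-type subunit, had 2518, 806 and 374 bp. Cacna1c, an L-type subunit, had 2098, 151 and 845 bp. Cacna1g, a T-type subunit like Cacna1i, had 417, 226 and 399 bp, beginning 1359 bp downstream of its alternative TSS. The family thus held some of the longest and some of the shortest coverages. The other two genes of the 7 were Cacna1b and Cacna1h, each with a peak in all 9 libraries. At Cacna1h coverage was 2122, 1620 and 1450 bp at P7, 1069, 1418 and 1854 bp at P14, and 194, 211 and 1026 bp at P60. Across the whole list of sodium, calcium, HCN and TRP channels, 7 of 32 genes had a P7-only region, the others being Hcn2 and Trpc5.

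Potassium channel genes had a P7-only region in 7 of 45 cases (15.6%), near the share over all genes. Kcnk3 came first by its smallest coverage, with 1925, 1798 and 1227 bp in P7 replicates 1, 2 and 3. Kcnj9, a G protein-gated inward rectifier, had 1299, 648 and 616 bp, beginning 1095 bp downstream of the nearest TSS. Kcna1, the partner of Kcna2 in axonal channels, had 1390, 529 and 432 bp, and a P14 peak lay 395 bp from its region. Kcnab3, an auxiliary subunit, and Kcnh1 completed the group. Among glutamate and GABA receptors the count was 3 of 17 (17.6%), beside 12.8% of all genes with a P7 region. Grin2a, an NMDA receptor subunit, had 1400, 843 and 740 bp in the 3 replicates, and Gabbr2, a GABA-B receptor subunit, had 2291, 538 and 493 bp. Both of these receptor regions held the TSS and, like 89.4% of all 378 regions, had no P14 or P60 peak within 3 kb.

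Genes of synaptic vesicles and transmitter release had a P7-only region in 7 of 21 cases (33.3%), beside 12.8% of all genes. Rims4, of the family of active zone proteins, had 2375, 848 and 1088 bp covered in P7 replicates 1, 2 and 3. Syt7, a calcium sensor of slow release, had 1348, 857 and 798 bp. Stx3, a syntaxin of the membrane fusion machinery, had 2200, 745 and 539 bp. Vamp8, Snap91, Syt2 and Syt12 made up the rest. No region of the 7 had a P14 or P60 peak within 3 kb, which was also so for 89.4% of all 378 regions. Synaptic adhesion and scaffold genes gave 7 of 38 (18.4%). Shank2 had 2364, 862 and 1121 bp and Shank1 had 1097, 801 and 1436 bp, and these are 2 of the 3 genes of that family of postsynaptic scaffolds. Dlgap4, a partner of postsynaptic scaffolds, had 1450, 1087 and 639 bp, and Nptxr, the neuronal pentraxin receptor, had 1966, 626 and 582 bp. Replicate 1 covered the most sequence in each of these genes except Shank1, where replicate 3 did.

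Axon guidance genes gave 5 of 27 (18.5%), beside 12.8% of all genes with a P7 region. Efna1, an ephrin ligand, had 1524, 968 and 1467 bp in P7 replicates 1, 2 and 3 across its TSS. The receptors and ligands Sema5a, Ephb1, Unc5b and Plxna1 had smallest coverages of at most 671 bp, and none of those 4 regions held the TSS. Of the 6 annotated Camk2 and Camkk genes, 3 had a promoter region in all 3 P7 libraries. Each of these 3 had a P7-only region, beside the same 12.8% of all genes. Camk2b, a subunit of the calcium/calmodulin-dependent kinase of synapses, had 3142, 671 and 905 bp. Camkk1 had 1192, 960 and 574 bp and Camkk2 had 889, 745 and 264 bp, both downstream of the TSS. These kinase genes and the Shank family, like the Cacna1 genes, were singled out after the values had been seen. Other families counted in the same way gave lower shares of their genes with a P7 region. Hcn and Grin2 each gave 1 of 2, Syt 3 of 7 and Kcna 2 of 6. Kcnj gave 2 of 7, Grm 1 of 6 and Kcnk 1 of 8.

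Homeobox genes, which encode transcription factors of early development, were more often marked until P14 than P7-only. Of 145 homeobox genes with a promoter region in all 3 P7 libraries, 9 (6.21%) had a P7-only region, and 78 others had a region marked until P14. Over all 2903 protein-coding genes with such a P7 region, 371 had a P7-only region and 493 others a region marked until P14. The P7-only regions of homeobox genes often lay near a later peak: 5 of the 9 had a P14 or P60 peak within 3 kb, against 40 of all 378, and 7 of the 9 genes had another promoter region with such a peak. Irx6, a factor of the Iroquois family, had 1440, 1359 and 1379 bp covered in P7 replicates 1, 2 and 3, starting 2401 bp downstream of the nearest TSS with a P14 peak 2274 bp away. Nkx6-1, a patterning factor of the ventral neural tube, had 1420, 603 and 443 bp, and a P14 peak lay 1325 bp away. Hoxa3, of the Hox cluster, had 1739, 1188 and 1132 bp across a TSS and a P14 peak 3035 bp away. Cux1 and Pknox2 differed in having their nearest later peak 9973 and 238807 bp away.

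The remaining lists of this kind gave shares under the 12.8% of all genes, except for other lineage factors. Granule neuron progenitor and Hedgehog genes had 1 of 15, which was Hes1, a Notch target, with 823, 486 and 890 bp covered and a P14 peak 1228 bp from its region. Forkhead and Sox factors had 1 of 37 (Foxo1, a forkhead factor downstream of insulin signalling), and Wnt pathway genes had 2 of 42 (Lgr5, a receptor for R-spondins, and the ligand Wnt11). Of the 7 genes for H3K27 methylation enzymes and Polycomb subunits with a promoter region in all 3 P7 libraries, 0 had a P7-only region. Kdm2b, a component of a Polycomb complex that was not in this list, had one at an alternative TSS 36387 bp from the 5′ end of the gene. Other lineage factors, a broad list matched by name that also took in Irf2bpl, gave 14 of 92 (15.2%). The list of monoamine, acetylcholine and peptide receptors gave 3 of 59, with Adora1 covered by 2284, 1426 and 1882 bp.

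Larger lists of general function lay around the share over all genes. Signalling genes for small GTPases, G proteins and kinases gave 20 of 127, Slc transporters 11 of 71, extracellular matrix genes 8 of 79, bHLH factors 5 of 42, and FGF, BMP and TGF-beta family genes 5 of 50. Neurotrophin and other growth factor genes gave 6 of 68 and orphan and adhesion G protein-coupled receptors 3 of 26. Markers of other cell types of the cerebellum were counted in the same way, in lists of at most 11 genes with a P7 region. Purkinje cell markers gave 1 of 5 (Rora), unipolar brush cell markers 2 of 7 (Calb2 among them) and oligodendrocyte lineage markers 1 of 6 (Cnp, a myelin enzyme). Markers of astrocytes and Bergmann glia gave 0 of 2, of microglia 0 of 1, of inhibitory interneurons 0 of 11 and of endothelial and mural cells 0 of 6. Peak lists hold no RNA levels, so the share of each cell type in the tissue was not measured.

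Coverage of the P7-only regions was centred a little downstream of the TSS, as it also was in regions marked for longer. Of the 378, 198 held a TSS, 121 lay downstream of the nearest TSS and 59 upstream. The share that held a TSS was 52.4%, beside 76.1% of the 532 promoter regions marked until P14, that is, in all P7 and all P14 libraries and no P60 library, and 43.2% of all promoter regions. It was 73.7% of the 3206 promoter regions with a peak in all 3 P7 libraries and 79.7% of those in all 9 libraries. Median width differed between these sets, and its part in the shares was not tested. Coverage around the TSS was highest 550 bp downstream in P7 replicates 1 and 2, where 61.9% and 41.5% of the regions lay under a peak, and 250 bp downstream in replicate 3 at 37.8%. In regions marked until P14 it was highest 250, 350 and 350 bp downstream in the same libraries. In P14 and P60 the windows of the P7-only regions peaked at no more than 2.91%. For 72 of the 378 regions the nearby TSS was one other than the annotated 5′ end of the gene. Examples were Rora, Shank2, Syt2, Tiam1, Wnt11 and 4 of the Cacna1 genes. The share of such regions lay between 17.5% of promoter regions with a peak in all 3 P7 libraries and 20.5% of regions marked until P14. It was below the 25.2% of all promoter regions, so this placement was not particular to P7-only regions. Of all bases in the regions, 10.0% were coding, 11.0% untranslated, 55.2% intronic or other gene sequence and 23.7% outside protein-coding genes, whereas 18.3% of the bases of the regions marked until P14 were coding.

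**Figure D3:**
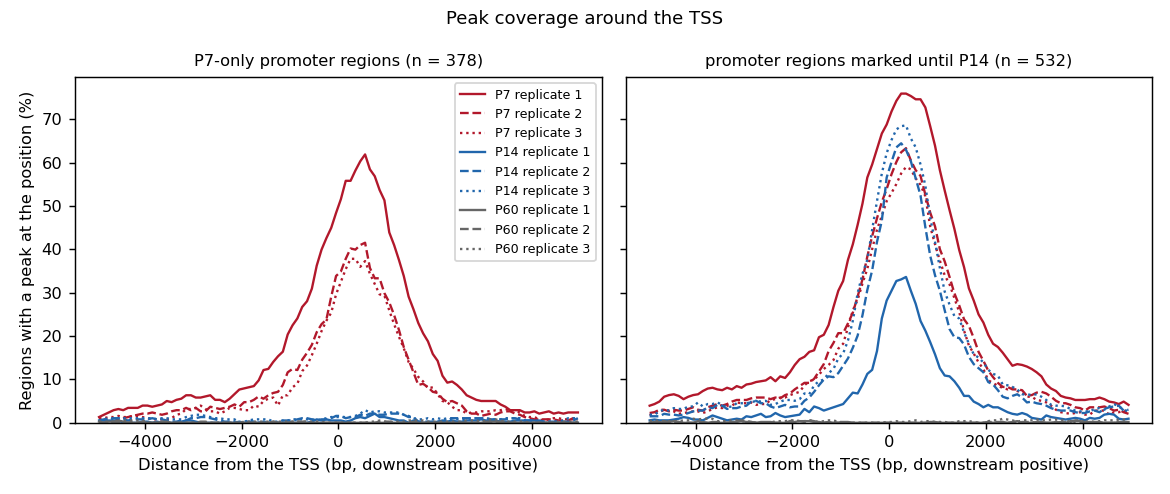
Share of regions with a peak (y axis, %) at each distance from the nearest TSS (x axis, bp, downstream positive) in the 9 libraries, for 378 P7-only regions (left) and 532 regions marked until P14 (right); red, blue and grey are P7, P14 and P60. The P7 lines on the left reach 61.9%, 41.5% and 37.8% just downstream of the TSS, and the late lines stay at or below 2.91%, as the rule requires over the regions themselves.

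The regions were also narrower and less CpG-rich than those marked until P14. Their width ran from 228 to 4596 bp with a median of 1449.5 bp, beside a median of 2147.5 bp. P7-only regions merge P7 peaks alone and the others P7 and P14 peaks, so the difference in width follows in part from the rule. The median was 38.5 CpG per kb in the P7-only regions, 49.9 in the regions marked until P14, 44.3 in the 576 marked in all 9 libraries, 31.0 in all promoter regions and 8.02 over the genome. GC content of at least 50% with a CpG ratio (observed over expected) of at least 0.6 was met by 26.5% of the P7-only regions and by 43.6%, 31.1% and 21.8% of the other 3 sets. In the 3206 promoter regions with a peak in all 3 P7 libraries, the median was 43.2 CpG per kb and 31.9% met both thresholds. The P7-only regions were thus less CpG-rich than promoter regions marked at P7 in general. The range among single regions was wide, from 0.85 to 100.3 CpG per kb, the highest being that of Foxo1. The printed stretches held from 8 CpG at Car11 to 22 at Irf2bpl and Kcnk3. Each was picked for the most CpG, so they do not show the densities of whole regions. Width and position in the gene differ between the sets as well, and their part in the CpG values was not tested.

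**Figure D4:**
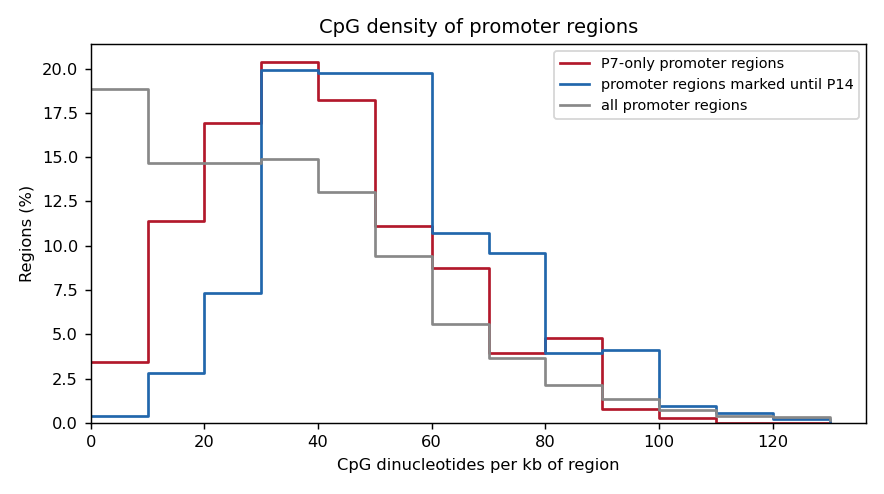
Percent of regions (y axis) by CpG density (x axis, CpG dinucleotides per kb, bins of 10) for P7-only promoter regions, promoter regions marked until P14 and all promoter regions. The P7-only regions (median 38.5) lie below the regions marked until P14 (median 49.9) and above all promoter regions (median 31.0). They also lie below the promoter regions with a peak in all 3 P7 libraries (median 43.2, not drawn).

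Short motifs of transcription factors of granule neurons were counted on both strands as a description. The core CCTGCTG of ZIC factors occurred 0.437 times per kb in the P7-only regions, 0.466 in regions marked until P14 and 0.482 in all promoter regions. The Atoh1 E-box CAGATGG occurred 0.179, 0.166 and 0.184 times per kb in these sets. The NFI core TTGGCA occurred 0.500, 0.423 and 0.450 times per kb. At least 1 match was present in 46.6%, 23.8% and 50.3% of the P7-only regions for the 3 motifs, and in 34.4%, 17.3% and 34.9% of all promoter regions, which are shorter. Of the 3 motifs, TTGGCA alone was denser in the P7-only regions than in both other sets.

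Most regions had no later peak close by, which the rule favours by leaving out regions that a later peak overlaps. Of the 378, 338 (89.4%) had no P14 or P60 peak within 3 kb, and the median distance to the nearest such peak was 30261.5 bp. Within 100 kb, 315 (83.3%) had one. No value for other promoter regions stands beside these, so they cannot be called particular to P7-only regions. The P14 library with the most close peaks was replicate 3, with a peak within 3 kb of 30 regions. Members were spread over the genome, with at most 38 on any chromosome (7 and 11) and 16 pairs of neighbours less than 50 kb apart. Away from promoters, 197 further regions had a peak in all 3 P7 libraries and none later, so that 65.7% of the 575 P7-only regions of the genome were at promoters. Of all 39220 merged regions, 8609 were at promoters. The promoter share of all regions with a peak in all 3 P7 libraries was not computed, so 65.7% cannot be called particular to P7-only regions.

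How far the P7-only state held in a library that had no part in the choice was examined by leaving out each library in turn and choosing regions from the other 8. Regions chosen without P7 replicate 1, 2 or 3 had a peak in that library in 96.9%, 78.8% and 55.8% of cases, beside 64.7%, 49.9% and 42.2% of all promoter regions. The shares in the P7 libraries were thus above those of all promoter regions, by the least margin in replicate 3, which had the fewest peaks at that age. For P14 replicates 1, 2 and 3 the shares were 1.05%, 12.1% and 28.9%, beside 31.5%, 45.1% and 48.0% of all promoter regions. For P60 they were 0.787%, 0.264% and 2.07%, beside 20.6%, 16.9% and 27.5%. The late libraries had fewer peaks at these regions than at promoter regions in general, but P14 replicate 3 had one at 154 of 532. These differences, at P7 as at the later ages, followed in part from the choice. The regions were chosen for having or lacking peaks in the other libraries of that age, and all promoter regions were not. The counts of 154, 52 and 4 in P14 replicates 3, 2 and 1 equal those above for regions with a peak in 1 P14 library. Regions marked until P14, chosen in the same way, had a peak in the left-out P7 library in 100%, 97.3% and 93.0% of cases, above the P7-only regions in each, and in the left-out P14 library in 63.9%, 96.7% and 99.1%.

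**Figure D5:**
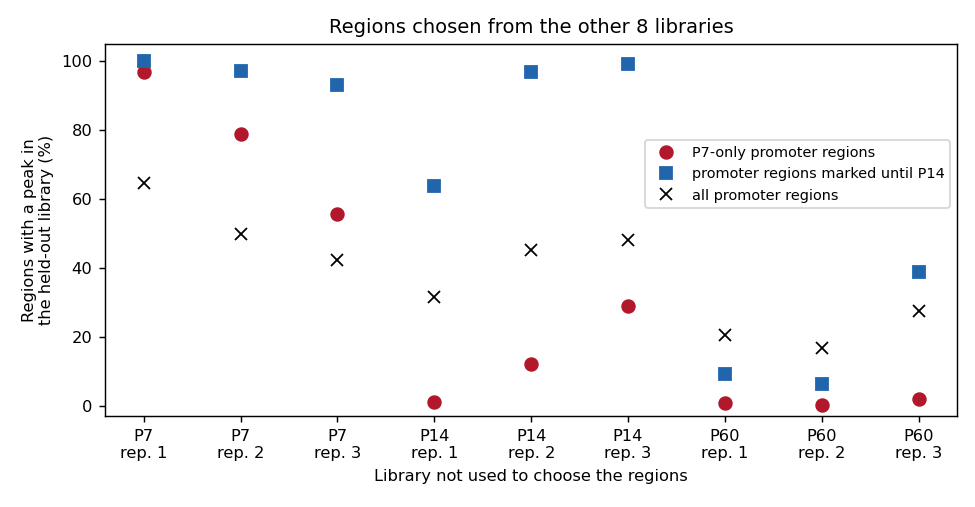
Percent of regions with a peak in a library (y axis) that was left out when the regions were chosen from the other 8 (x axis), for P7-only promoter regions (circles), promoter regions marked until P14 (squares) and all promoter regions (crosses). P7-only regions run from 55.8% to 96.9% in P7 libraries, from 1.05% to 28.9% in P14 libraries and from 0.264% to 2.07% in P60 libraries.

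By significance, peaks of the P7-only regions ranked below those of regions marked for longer, while for fold enrichment the order depended on the set compared. Ranked by −log10 q within each P7 list, the median region stood at percentile 66.1, 46.4 and 37.5 in replicates 1, 2 and 3, against 80.4, 68.7 and 60.2 for regions marked until P14 and 92.6, 86.3 and 81.3 for those marked in all 9 libraries. Over all promoter regions with a peak in the library it was 63.4, 58.8 and 56.5. Median fold enrichment was in turn higher in the P7-only regions, at 3.13, 3.34 and 3.24, than in the wider regions marked until P14, at 2.53, 2.83 and 2.75. In regions marked in all 9 libraries it was 3.23, 3.40 and 3.26, slightly above the P7-only regions in each replicate. A total of 122 of the 378 (32.3%) reached a −log10 q of 2 in all 3 P7 libraries, against 67.7% of the regions marked until P14. With peaks below that value dropped from all 9 lists, 247 regions met the rule, of which 125 were not among the 378. With an equal number of peaks (6905) in each list 311 met it, of which 149 were not. Which regions met the rule thus depended on the peak threshold. Without P7 replicate 3, 676 regions met it. The part of peak strength and of library size in the choice of regions was not tested.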

How the data were processed

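H3K27me3 ChIP-seq peak lists of mouse cerebellum were analysed. Per the labels and the study's methods, reads of 50 bases went through FastQC, Trimmomatic 0.38 and alignment to mm10 by STAR 2.7.2b, and the authors called broad peaks per library with MACS2 2.1 at a named false discovery rate of 0.01, with no input library named. The submitters' notes also list bedtools 2.25.0 and DESeq2 1.36.0, used for comparisons not repeated here. Each deposited list gives a score (10 times −log10 q), fold enrichment over background (a ratio), −log10 p and −log10 q. All lists go down to a −log10 q of about 1.00, which is weaker than the named rate. The depth of the libraries is unknown, so no counting interval was made. The study describes the libraries of each age as separate biological replicates.

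The 9 lists of the age series were merged and overlapped with TSSs of 21938 protein-coding genes of GENCODE vM21 (mm10), using Python 3.11.15, numpy 2.4.6, pandas 2.3.3 and matplotlib 3.10.9. Each region was named by the gene of the nearest TSS. Sequence came from RefSeq GRCm38. The 5 knockout lists had 241 peaks past the ends of mm10 chromosomes (0 in the age series) and shared 0.659 to 1.48% of joint bases with the P14 lists, which shared 25.2 to 43.1% with each other. They are on another build than the mm10 named, so the comparison of Kdm6b-cKO with Kdm6b-WT was not run.

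Members, gene lists and motifs were chosen with earlier results of these data known. Named were the 20 regions with the largest smallest-of-3 P7 coverage, up to 4 per gene list by that measure, the 3 nearest each side of the rule, and 8 genes looked up in any case (Grin2c, Grm4, Gabrd, Kcnk9, Rbfox3, Nptx1, Slc12a5 and Ccdc106); others were named after their values were seen. The region rule was tested on simulated peak lists with planted regions. Alternatives were other peak thresholds, widths, merging gaps and TSS windows and leaving out each library. Some items that the naming rule selects are not reported here.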

Additional observations from a re-analysis of the deposited data

How the results depend on the processing

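Of the 378 P7-only promoter regions, the number moved by more than 1.5 times under 3 settings of the peaks: 247 with peaks of −log10 q of 2 or more, 61 with 4 or more (3 of the 378 were among them), and 138 when a P7 library had to cover 50% of the region. It stayed between 308 and 372 with an equal number of peaks in every list (311), peaks of 300 bp or more (359), peaks up to 500 bp apart merged (372), a window of 1 kb (329), only the 5′ end of each gene (308) and, chosen after seeing the data, no P14 or P60 peak within 3 kb (338). Leaving out single libraries gave 379 to 676. The highest was without P7 replicate 3, and 532 were found without P14 replicate 3. Leaving out a library can only loosen the rule for that age, apart from changes to the merged regions. The mature granule neuron genes with a P7-only region numbered 9, with 4 at −log10 q of 2, 2 at 4, 2 at 50% coverage and 14 without P7 replicate 3. No paired analysis was possible because the result comes from no test and the libraries of the 3 ages were separate mice. The tests of Kdm6b-cKO against Kdm6b-WT and their alternatives (leaving out a replicate, another filter, the replicate block, a square-root scale) were not run, because those lists are on another build. Depth limits could not be set, as read numbers are unknown.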
